A study of Sus scrofa with 5 samples.

Results

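The mitosis genes are 49 genes whose products condense chromosomes, build the spindle, guard and trigger anaphase, and divide the cell. They were chosen by symbol, and each matched 1 row among the 30822 genes listed for every library. The libraries hold RNA of ovarian follicles from Indian Ghoongroo pigs (Sus scrofa, labelled female), 3 of large and 2 of small follicles. No treatment, age, follicle diameter or number of pooled follicles is given in the sources used here. Per the labels the replicates are biological, but whether they came from separate animals is not given, so a p-value here speaks only of the spread among these 5 libraries, which may be technical. All 49 genes reached 1 FPKM (fragments per kilobase of gene length, scaled to the library's total) in at least 2 libraries and entered the test.

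As background, a dividing cell switches these genes on together late in its cycle. Cyclin B bound to the kinase CDK1 starts mitosis, Aurora and Polo kinases shape the spindle, and the spindle checkpoint holds anaphase until every chromosome is attached. The anaphase-promoting complex (APC/C) with CDC20 then marks securin and the cyclins for destruction, which frees separase to cut the cohesin rings. In an antral follicle the granulosa cells that line the cavity are known to proliferate as the follicle grows and to slow down as it matures, while theca cells, blood vessel cells and leukocytes of the wall can also divide. In such bulk samples, fewer dividing cells and less mitotic RNA per cell cannot be told apart.

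Of the 49 genes, 48 had lower values in large than in small follicles, as had 60.1% of all genes tested, and AURKA alone had a higher one. The median log2 fold change (large minus small, of FPKM + 1) was -0.53, beside -0.084 over the 13087 genes tested. None of the 49 passed limma's test (Benjamini-Hochberg adjusted p under 0.05), and the lowest adjusted p was 0.340. Over all genes tested 0.978% were called, 0.443% with lower and 0.535% with higher values in large follicles. Limma gave 7 of the 49 an unadjusted p under 0.05, all lower in large follicles, where 10.4% of all genes tested passed in either direction and 5.67% in that direction. Limma voom, run on fragments recovered from the FPKM values, also called 0 of 49 (0.535% of all genes tested) and had 7 at an unadjusted p under 0.05 (10% of all genes tested). In 18 alternative settings 0 of the mitosis genes tested were called (49 in each setting except a filter at a mean of 5 FPKM, which tested 23), while 4.78% of all genes tested were called in at least 1 of them.

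**Figure D1:**
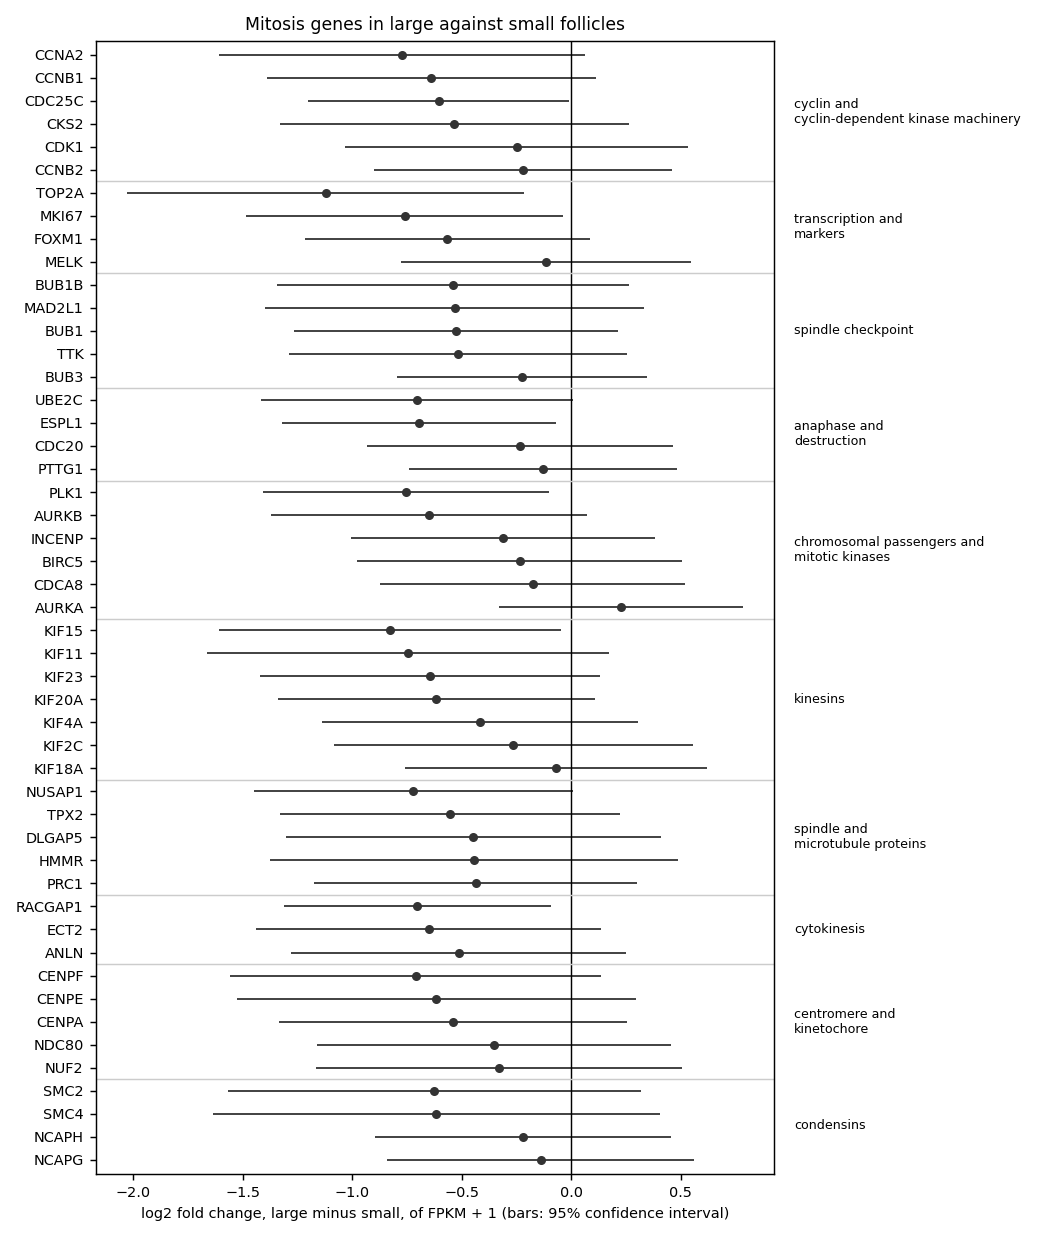
Log2 fold change of FPKM + 1 (large minus small follicles, x axis) of the 49 mitosis genes (y axis, grouped by role), with bars for the 95% confidence interval from limma (3 large and 2 small libraries). Every point except AURKA lies below 0, and 42 of the intervals include 0.

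Levels of the mitosis genes differed between libraries of the same group. Averaged over the 49 genes, the level on the log2(FPKM + 1) scale was 2.71, 2.11 and 2.59 in the large follicle libraries, in the order of their numbers, and 2.61 and 3.30 in the small ones. Small follicle replicate 1 thus lay between large follicle replicates 3 and 1. The highest mean was that of small follicle replicate 2 and the lowest that of large follicle replicate 2. Small follicle replicate 2 had the highest value for 45 of the 49 genes, and large follicle replicate 2 the lowest for 43. Among all genes tested those shares were 45.9% and 43.2%, so the same 2 libraries were also the extremes for many other genes on the deposited scale.

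Small follicle replicate 1 fell within the range of the 3 large follicle libraries for 37 of the 49 genes, above it for 11 and below it for 1. Among all genes tested those shares were 51.9%, 18.9% and 29.2%, on the deposited scale. Values of the groups did not overlap, with small follicles higher, for those 11 genes, and 15.2% of all genes tested showed that (26.1% counting both directions). Within the small follicles, replicate 2 exceeded replicate 1 for 48 genes, against 79.6% of all genes tested. The median difference between these 2 libraries, 0.68 on the log2(FPKM + 1) scale, was larger than the size of the median difference between the groups. Over all genes tested that median was 0.34. Between large follicle replicates 1 and 2 it was 0.66 for the mitosis genes and 0.23 for all genes tested.

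**Figure D2:**
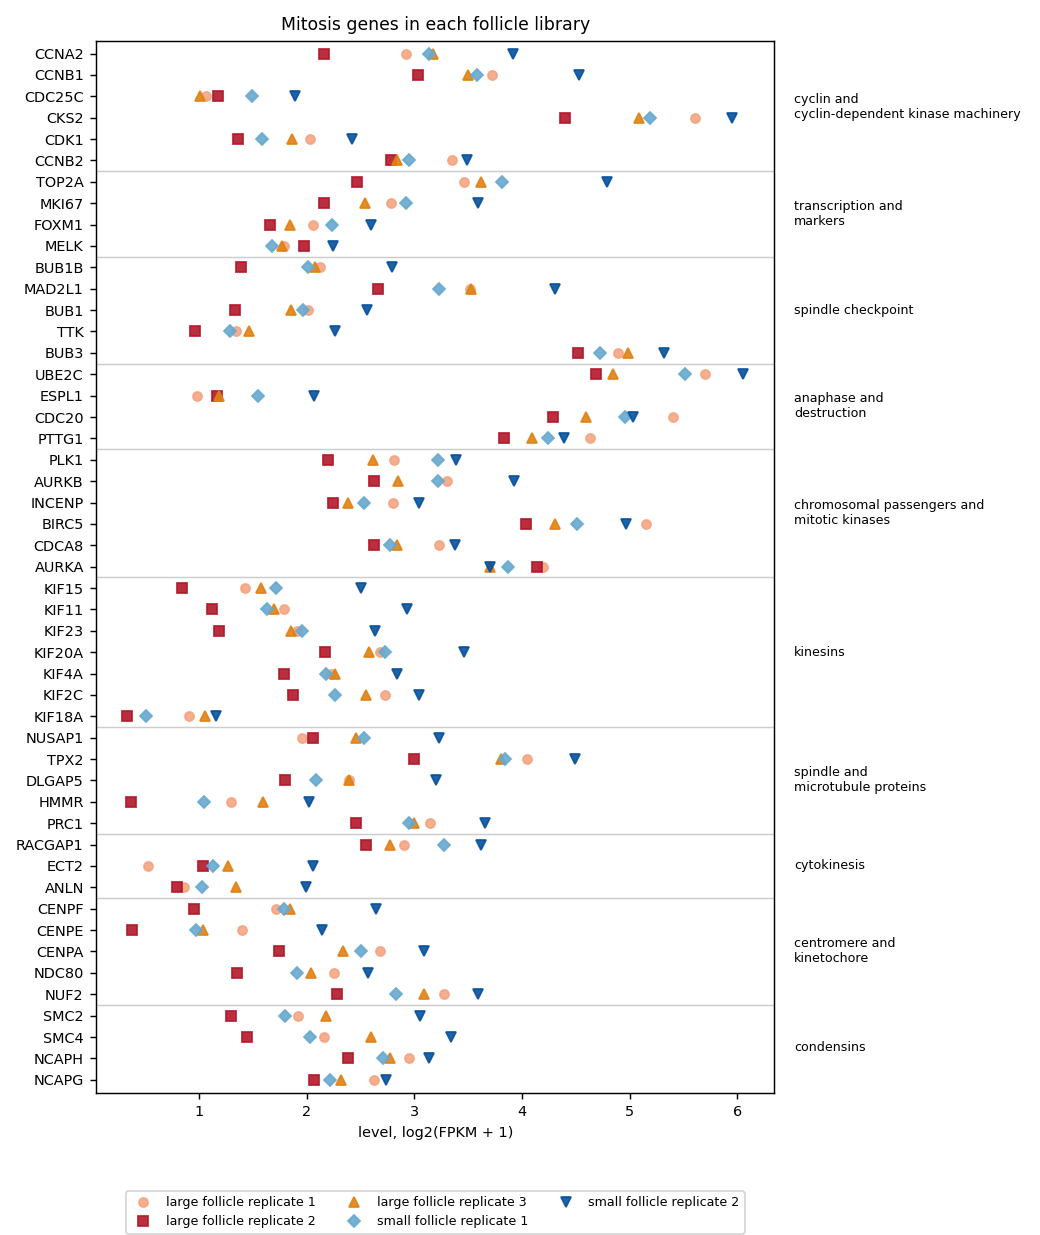
Level of each mitosis gene (y axis, grouped by role) in each of the 5 libraries, as log2(FPKM + 1) (x axis). The dark blue triangles of small follicle replicate 2 lie to the right for 45 genes and the red squares of large follicle replicate 2 to the left for 43, while small follicle replicate 1 falls among the large follicle libraries for 37.

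How far the result moved depended on which library was left out. Without large follicle replicate 1 the median log2 fold change was -0.62 (-0.11 over all genes tested). Without large follicle replicate 3 it was -0.59 (-0.16 over all genes tested). In both settings 48 of the 49 genes had lower values in large follicles and limma called 0. The lowest limma adjusted p was 0.220 without replicate 1 and 0.0937 without replicate 3. Without small follicle replicate 2 the median log2 fold change was -0.086 (0.090 over all genes tested), 35 of the 49 genes had lower values in large follicles, and 0 passed limma at an unadjusted p under 0.05. The shares of all genes tested were 6.66% for that unadjusted count and 0.458% for calls. Leaving out either small follicle library leaves 1, so these p-values rest on the spread of the large follicle libraries, and the lone small library is assumed to vary like them. Without small follicle replicate 1 the median was -0.88 and 24 genes passed at an unadjusted p under 0.05, where 9.56% of all genes tested did, yet 0 were called (0.596% of all genes tested). The median over all genes tested without small follicle replicate 1 was -0.26. Without large follicle replicate 2 the median was -0.30 (0.019 over all genes tested) and 45 genes had lower values. In that setting 2 mitosis genes passed limma at an unadjusted p under 0.05, where 1494 of the 13087 genes tested did. With both extreme libraries left out, a setting added after the values were seen, the median was 0.082 and 17 genes had lower values in large follicles. All genes tested then had a median of 0.19. Those libraries were picked as the extremes of these same genes, so the difference had to shrink, and the setting is a description that says nothing of stability.

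**Figure D3:**
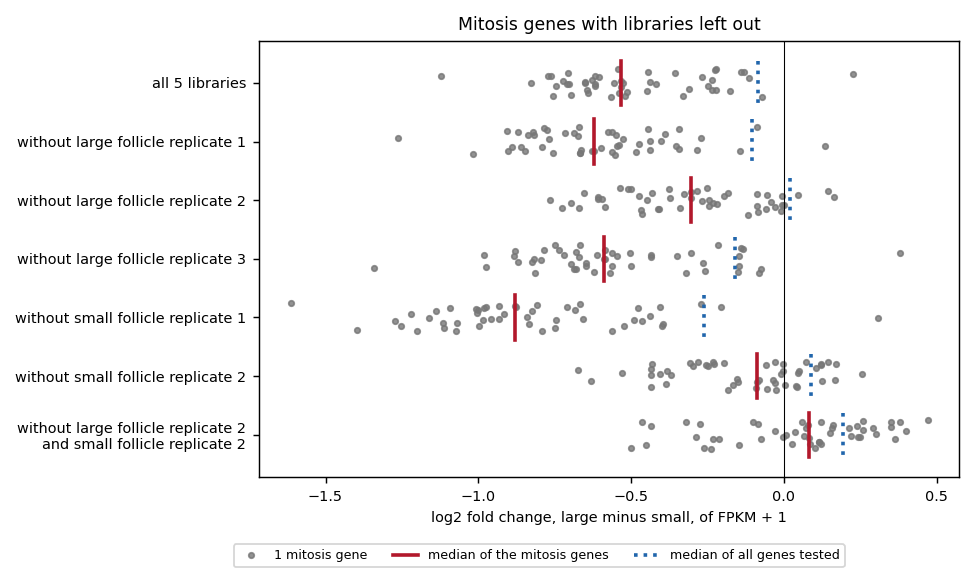
Log2 fold change of FPKM + 1 (large minus small, x axis) of the 49 mitosis genes (1 grey point each; vertical scatter is only for display) with all libraries and with libraries left out (y axis). Red bars are the medians of the mitosis genes, which move from -0.53 with all 5 libraries to -0.086 without small follicle replicate 2 and 0.082 without both extreme libraries; dotted blue bars are the medians of all genes tested.

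The count of genes without overlap depended on how libraries were scaled. With median-of-ratios scaling, which sets the libraries to a common typical gene, 20 of the 49 genes had both small follicle values above all 3 large ones, where 14.5% of all genes tested did. The mean levels were then 2.69, 2.29 and 2.47 in the large and 2.72 and 3.06 in the small follicle libraries, so small follicle replicate 1 sat just above large follicle replicate 1. Small follicle replicate 2 was then highest for 38 genes and large follicle replicate 2 lowest for 31, beside 23.0% and 24.0% of all genes tested. With quantile normalization these counts were 33 and 27, beside 22.3% and 23.0%. With quantile normalization the count without overlap was 17 of 49, against 15.7%, and after scaling to a common sum 11, against 15.5%. Limma called 0 of the 49 under each of the 3 scalings, and 1.54%, 1.54% and 1.16% of all genes tested in the order given. At an unadjusted p under 0.05 limma had 14 of the 49 with median-of-ratios scaling (13.1% of all genes tested), 14 with quantile normalization (13.9%) and 7 with a common sum (8.57%). The lowest adjusted p was 0.164 with median-of-ratios scaling.

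Among the 4 proliferation markers and transcription genes, log2 fold changes ran from -1.12 to -0.11. TOP2A (gene 396917, Sscrofa11.1 chromosome 12, 22001300 to 22028452, plus strand), the topoisomerase that untangles sister chromatids, had 9.99, 4.52 and 11.3 FPKM in the large follicles (replicates in numbered order, here and below) and 13.0 and 26.7 FPKM in the small ones. Both small follicle values lay above all large ones, and the 2 small libraries differed 2.05-fold. The mean was 8.59 ± 3.58 FPKM (SD, n = 3) in large and 19.9 ± 9.68 FPKM (SD, n = 2) in small follicles. Its mean was 2.31-fold higher in small follicles, with the largest difference of the 49 genes on the log2(FPKM + 1) scale, though not by the ratio of means, where KIF15 had 2.34 (log2 fold change of TOP2A -1.12, SE 0.40, limma adjusted p = 0.340). MKI67 (gene 102164100, chromosome 14, 137266622 to 137296312, minus strand), which coats mitotic chromosomes and is the usual stain for cycling cells, had 5.89, 3.47 and 4.81 FPKM in large and 6.60 and 11.0 FPKM in small follicles. The groups did not overlap, by a narrow gap between small follicle replicate 1 and large follicle replicate 1. Its log2 fold change was -0.76 (SE 0.32, limma adjusted p = 0.450), from 387 to 1235 fragments a library.

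FOXM1 (gene 100511565, chromosome 5, 67246219 to 67263215, plus strand), the transcription factor that drives many genes of this phase, had 3.15, 2.16 and 2.60 FPKM in large and 3.72 and 5.06 FPKM in small follicles. Again the groups were apart without overlap, at a log2 fold change of -0.57 (SE 0.29, limma adjusted p = 0.570). MELK, a kinase expressed in dividing cells, had a log2 fold change of -0.11 and was the 1 gene whose lowest value came from small follicle replicate 1.

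Among the 6 genes of the cyclin and cyclin-dependent kinase machinery, log2 fold changes ran from -0.77 to -0.22. CCNA2 (gene 100415929, chromosome 8, 102260346 to 102266274), the cyclin of S and G2 phase, had 6.59, 3.46 and 8.01 FPKM in large and 7.77 and 14.1 FPKM in small follicles. Small follicle replicate 1 was below large follicle replicate 3, so the groups overlapped (log2 fold change -0.77, SE 0.37, limma adjusted p = 0.534). CCNB1 (gene 397662, chromosome 16, 47338239 to 47348385), the main mitotic cyclin, had 12.2, 7.19 and 10.3 FPKM in large and 11.0 and 22.1 FPKM in small follicles, with small follicle replicate 1 inside the large range. Its kinase partner CDK1 (gene 100155762, chromosome 14, 64233945 to 64255290) had 3.07, 1.57 and 2.63 FPKM in large and 1.99 and 4.34 FPKM in small follicles. For CDK1 small follicle replicate 1 was lower than 2 of the 3 large libraries. The log2 fold changes of CCNB1 and CDK1 were -0.64 (SE 0.34, limma adjusted p = 0.579) and -0.25 (SE 0.35, limma adjusted p = 0.886).

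CDC25C (gene 100144474, chromosome 2, 140289156 to 140323696), the phosphatase that activates CDK1, was among the lowest of the list, at 1.10, 1.26 and 1.02 FPKM in large and 1.81 and 2.71 FPKM in small follicles. Those values did not overlap, but they rest on 16 to 41 fragments a library (log2 fold change -0.61, SE 0.26, limma adjusted p = 0.468). CKS2, a small CDK-binding protein, was among the most abundant, between 20.1 FPKM in large follicle replicate 2 and 60.7 FPKM in small follicle replicate 2. CCNB2, the second B-type cyclin, had a log2 fold change of -0.22.

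The 6 kinases and chromosomal passengers ranged widely, from -0.76 to 0.23 on the log2 scale. PLK1 (gene 396953, chromosome 3, 22537814 to 22550901), the Polo kinase, had 6.02, 3.59 and 5.14 FPKM in large and 8.28 and 9.43 FPKM in small follicles. Here the 2 small libraries were close, differing only 1.14-fold, and both exceeded the large ones. The mean was 1.80-fold higher in small follicles (log2 fold change -0.76, SE 0.29, limma adjusted p = 0.381), and without small follicle replicate 2 the log2 fold change was still -0.67 (limma adjusted p = 0.938). AURKA (gene 574063, chromosome 17, 56954838 to 56972435), the Aurora kinase of the spindle poles, ran against the rest at 17.3, 16.7 and 12.1 FPKM in large and 13.6 and 12.1 FPKM in small follicles. Large follicle replicates 1 and 2 were its highest libraries and the groups overlapped (log2 fold change 0.23, SE 0.25, limma adjusted p = 0.850).

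AURKB (gene 396955, chromosome 12, 53410833 to 53426165), the Aurora kinase of the centromere and midzone, had 8.85, 5.16 and 6.18 FPKM in large and 8.31 and 14.2 FPKM in small follicles, and large follicle replicate 1 exceeded the lower of the small libraries. Its log2 fold change was -0.65 (SE 0.32, limma adjusted p = 0.546). Its partner BIRC5 (gene 397266, chromosome 12, 3747276 to 3755214), also known as survivin, had 34.6, 15.5 and 18.8 FPKM in large and 21.8 and 30.2 FPKM in small follicles. The highest BIRC5 value thus came from a large follicle library (log2 fold change -0.24, SE 0.33, limma adjusted p = 0.886). INCENP and CDCA8, the scaffold subunits of the same complex, had log2 fold changes of -0.31 and -0.18.

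In the group of anaphase and destruction, 2 genes lay near the top of the list by p and 2 had log2 fold changes closer to 0. ESPL1 (gene 100153121, chromosome 5, 18486969 to 18509913), the protease separase, had 0.968, 1.25 and 1.28 FPKM in large and 1.92 and 3.20 FPKM in small follicles. Small follicles were higher without overlap, 2.20-fold in the mean (log2 fold change -0.70, SE 0.28, limma adjusted p = 0.409). UBE2C (gene 100153133, chromosome 17, 48018403 to 48021542), the ubiquitin-conjugating enzyme of the APC/C, was the most abundant of the 49 by the mean over libraries, 42.7 FPKM. It had 51.0, 24.8 and 27.8 FPKM in large and 44.6 and 65.5 FPKM in small follicles, where large follicle replicate 1 overlapped the small group (log2 fold change -0.70, SE 0.32, limma adjusted p = 0.487). CDC20, the APC/C activator, and PTTG1, the separase inhibitor securin, had their highest values in large follicle replicate 1, at 41.2 and 23.7 FPKM. Their log2 fold changes were -0.23 and -0.13.

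The 7 kinesins, motors that move along spindle microtubules, had log2 fold changes from -0.83 to -0.070. KIF15 (gene 100738172, chromosome 13, 27966586 to 28041121), which helps keep spindle poles apart, had 1.70, 0.790 and 1.98 FPKM in large and 2.29 and 4.67 FPKM in small follicles. The groups did not overlap, and small follicle replicate 1 was close to large follicle replicate 3 (log2 fold change -0.83, SE 0.35, limma adjusted p = 0.446). KIF20A and KIF23, both needed for the midzone and cytokinesis, also had no overlap, while KIF11, KIF4A, KIF2C and KIF18A overlapped. KIF11, the motor that separates the poles, differed 3.18-fold between the 2 small follicle libraries. KIF18A, the lowest gene of the list, rested on 9 to 43 fragments a library.

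All 5 spindle and microtubule proteins had lower values in large follicles, from -0.72 to -0.44 on the log2 scale. NUSAP1 (gene 106509022, chromosome 1, 129992797 to 130065641), which bundles microtubules, had 2.88, 3.16 and 4.49 FPKM in large and 4.77 and 8.38 FPKM in small follicles, with a narrow gap between the groups (log2 fold change -0.72, SE 0.32, limma adjusted p = 0.485). TPX2, which brings AURKA to the spindle, ranged from 6.97 FPKM in large follicle replicate 2 to 21.5 FPKM in small follicle replicate 2. HMMR, which acts at spindle poles, was held by 11 fragments in large follicle replicate 2 and 115 in small follicle replicate 2.

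For cytokinesis, RACGAP1 (gene 100517651, chromosome 5, 15894314 to 15943619), a subunit of the central spindle complex, was the clearest of 3 genes. It had 6.50, 4.87 and 5.85 FPKM in large and 8.69 and 11.3 FPKM in small follicles, with no overlap and a 1.74-fold higher mean in small follicles (log2 fold change -0.70, SE 0.27, limma adjusted p = 0.385). ECT2, the exchange factor that RACGAP1 activates, and ANLN, the scaffold of the contractile ring, had log2 fold changes of -0.65 and -0.51. Both overlapped between the groups, and the small follicle libraries differed 2.68-fold and 2.88-fold.

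Spindle checkpoint, kinetochore and condensin genes had lower values in large follicles for each of their 14 members, and 0 of the 14 reached an unadjusted p under 0.05. Of all genes tested, 60.1% had lower values and 10.4% reached that limma p (5.67% in the lower direction). With only 14 genes, a count of 0 cannot be told from that share. Among the 5 checkpoint genes, BUB1, BUB1B, TTK and MAD2L1 had log2 fold changes between -0.54 and -0.52. BUB3 (gene 100156053, chromosome 14, 132703088 to 132715353), which non-dividing cells also express, had 28.7, 21.9 and 30.7 FPKM in large and 25.5 and 39.0 FPKM in small follicles. Its log2 fold change of -0.23 (SE 0.26, limma adjusted p = 0.860) came with small follicle replicate 1 inside the large range. The 5 centromere and kinetochore genes ran from CENPF, a fibrous corona protein, at -0.71 to NUF2, a subunit of the NDC80 complex that grips microtubules, at -0.33. CENPE, a kinetochore motor, ranged from 0.301 FPKM in large follicle replicate 2 to 3.40 FPKM in small follicle replicate 2.

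In the condensin complex, which compacts chromosomes, the 2 core ATPases had wider spreads than the 2 mitotic subunits. SMC2 (gene 100517138, chromosome 1, 245409559 to 245459032) had 2.78, 1.45 and 3.54 FPKM in large and 2.48 and 7.28 FPKM in small follicles. SMC4 (gene 100152361, chromosome 13, 100078149 to 100120907) had 3.47, 1.72 and 5.05 FPKM in large and 3.07 and 9.12 FPKM in small follicles. Small follicle replicate 2 was 2.94-fold and 2.97-fold above small follicle replicate 1, which lay inside the large range for both. Their log2 fold changes were -0.63 (SE 0.42, limma adjusted p = 0.708) and -0.62 (SE 0.45, limma adjusted p = 0.741), while NCAPH and NCAPG, subunits of condensin I, had -0.22 and -0.14.

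The 11 genes without overlap, as the FPKM values were deposited, were TOP2A, MKI67, FOXM1, PLK1, RACGAP1, ESPL1, CDC25C, NUSAP1, KIF15, KIF20A and KIF23. They came from 7 of the 10 role groups, and the spindle checkpoint, the kinetochore and the condensins held none. Of all genes tested 15.2% had no overlap in that direction, so none among so few genes does not set these groups apart. The role groups were not counted under the other scalings. Without small follicle replicate 2, log2 fold changes stayed below 0 for 35 genes, from PLK1 at -0.67, TOP2A at -0.63 and RACGAP1 at -0.53, and among the 14 above 0 were CDK1 at 0.17, BUB3 at 0.073 and SMC4 at 0.039. With both extreme libraries left out, by the same choice made from these genes, PLK1 was at -0.50, ESPL1 at -0.46, CDC25C at -0.45 and RACGAP1 at -0.43. In that setting SMC4 and CDK1 were above 0, at 0.35 and 0.36.

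Other genes of the division programme, from lists that do not share members with the 49, showed a like picture. Of 56 further mitotic genes 49 were tested, 43 with lower and 6 with higher values in large follicles (median log2 fold change -0.45). Limma called 0, and 7 had an unadjusted p under 0.05. Over all genes tested 60.1% had lower values in large follicles, 0.978% were called and 10.4% had an unadjusted p under 0.05. The smallest p belonged to IQGAP3, a scaffold protein, and CDCA5, which protects cohesin, with log2 fold changes of -0.89 (SE 0.27) and -0.90 (SE 0.32) and limma adjusted p values of 0.218 and 0.319. SPAG5 and KIF18B, a spindle protein and a kinesin, had limma adjusted p values of 0.354 and 0.363. Small follicle replicate 2 was again highest for 42 of the 49, and large follicle replicate 2 lowest for 42, beside 45.9% and 43.2% of all genes tested.

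DNA replication genes, which act in the S phase before mitosis, were set beside them. Of 41 tested, 39 had lower values in large follicles (median log2 fold change -0.53). Limma called 0, and 17 had an unadjusted p under 0.05, all lower in large follicles. The shares of all genes tested were 60.1% lower, 0.978% called, and 10.4% at that unadjusted p (5.67% in the lower direction). Small follicle replicate 1 lay above all 3 large libraries for 28 of the 41, against 11 of the 49 mitosis genes and 18.9% of all genes tested, all on the deposited scale. For the mitosis genes that count was 20 with median-of-ratios scaling and 17 with quantile normalization. The replication count under those scalings was not computed, so the lists can be compared only as deposited, and their difference was not tested. MCM2, a subunit of the replicative helicase, had 7.55, 7.27 and 7.84 FPKM in large and 14.5 and 19.0 FPKM in small follicles. Its large values were close together and its small ones further apart (log2 fold change -1.04, SE 0.25, limma adjusted p = 0.0991). POLE and POLD1, catalytic subunits of replicative polymerases, and the helicase subunit MCM5 had limma adjusted p values of 0.109, 0.120 and 0.144.

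Regulators of the cell cycle were counted in the same way. The shares of all genes tested to set beside them are 60.1% lower in large follicles, 0.978% called and 10.4% at an unadjusted p under 0.05. Of 16 tested E2F and DREAM factors, which switch cell cycle genes on and off, 14 had lower values in large follicles, 0 were called by limma and 3 had an unadjusted p under 0.05. MYBL2, the factor that precedes FOXM1 on mitotic promoters, had 15.7, 10.7 and 10.3 FPKM in large and 25.2 and 34.6 FPKM in small follicles, a log2 fold change of -1.23 (SE 0.26, limma adjusted p = 0.0744). E2F1, the activator of S phase genes, had -0.73 (SE 0.29, limma adjusted p = 0.409). Of 8 G1 cyclins and kinases, 7 had lower values (median -0.21), led by CCND2 at -0.62 (SE 0.43, limma adjusted p = 0.716). All 8 tested CDK inhibitors and pocket proteins had lower values (median -0.37), among them RBL1 at -0.76 and CDKN1B at -0.43. Of 17 APC/C subunits and regulators 9 had lower and 8 higher values (median -0.079), and all 10 cohesin genes had lower ones (median -0.40). In the lists of G1 genes, inhibitors, APC/C and cohesin limma called 0 genes, and 0 had an unadjusted p under 0.05.

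**Figure D4:**
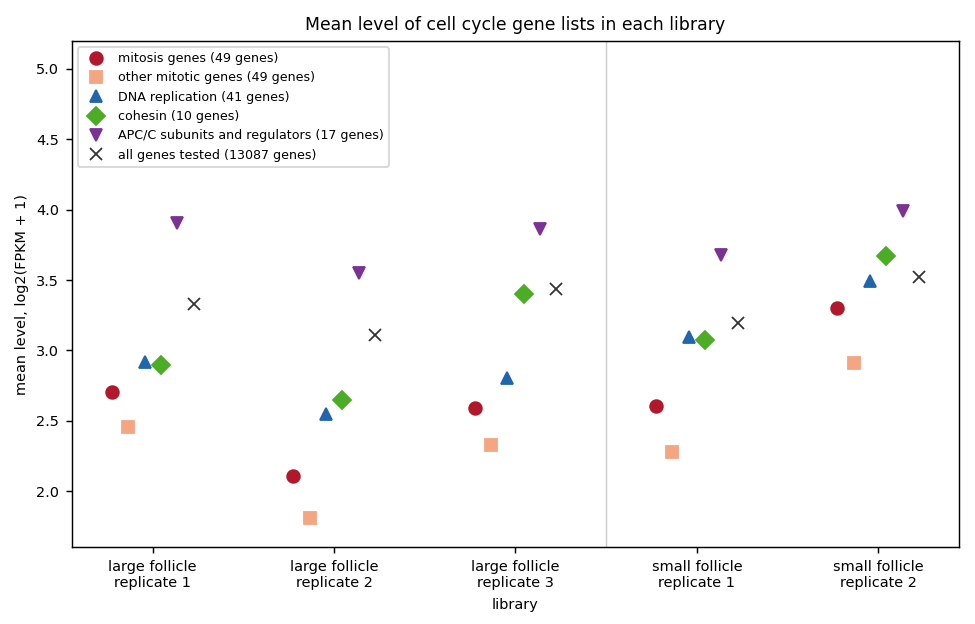
Mean level, as log2(FPKM + 1), of 5 lists of cell cycle genes and of all 13087 genes tested (y axis) in each of the 5 libraries (x axis, points set side by side within a library); each point is the mean over the tested genes of a list. The mitosis genes run from 2.11 in large follicle replicate 2 to 3.30 in small follicle replicate 2, and small follicle replicate 1 at 2.61 lies between large follicle replicates 3 and 1.

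Depth and the make-up of the follicles also differed between libraries. Totals ranged from 9523739 to 11507527 fragments, and the number of genes at 1 FPKM or more was lowest in large follicle replicate 2 (11784) and highest in small follicle replicate 2 (13064), as the mitosis genes were. The mean level of all genes tested was 3.33, 3.11 and 3.44 in large and 3.19 and 3.52 in small follicles; set against it, the mitosis genes lay 0.62, 1.01, 0.84, 0.59 and 0.22 log2 units below in the same order of libraries. Long genes had lower log2 fold changes than short ones: for listed lengths of 4000 bases or more the median was -0.62 in 17 mitosis genes and -0.18 in all genes tested, and under 2500 bases -0.35 in 15 mitosis genes and 0.07 in all genes. The share of fragments from mitochondrial genes was 3.46%, 6.33% and 3.08% in large follicles, and 8.50% and 4.20% in the small ones. The part of depth, gene length and mitochondrial share in the result was not tested.

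Markers of granulosa cells (12 of 12) and theca cells (10 of 10) passed the filter of at least 1 FPKM in at least 2 libraries. That does not show that both layers of the follicle wall were present in each library. The granulosa markers summed to between 7119 and 15423 FPKM in large and between 5449 and 8024 FPKM in small follicles. INHA alone gave 11739 of 15423 FPKM in large follicle replicate 2 and 2876 of 5449 FPKM in small follicle replicate 1. By gene, 8 of 12 were lower in large follicles (median log2 fold change -0.48), beside 60.1% of all genes tested. The 4 higher ones were INHA, FST, SERPINE2 and INHBA. The mean granulosa level on the log2 scale was highest in small follicle replicate 2 (7.58), as for the mitosis genes, but lowest in large follicle replicate 1 (6.43). The theca markers summed to between 5177 and 9638 FPKM in large and between 3944 and 4754 FPKM in small follicles. Of the 10, 7 had higher and 3 lower values in large follicles (median log2 fold change 0.45). The 3 were GLI1, PTCH1 and NR5A1. Limma called 1 granulosa marker, INHBB, lower in large follicles (limma adjusted p = 0.0237), and 1 theca marker, CYP17A1, higher (limma adjusted p = 0.0121). Over all genes tested 0.978% were called.

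Among markers of blood and vessels, 3 of 3 erythroid, 5 of 5 lymphocyte, 9 of 11 myeloid and 7 of 9 endothelial genes tested had higher values in large follicles. Of these 3, 1, 5 and 1 had an unadjusted p under 0.05, and limma called 1, the myeloid gene LYZ. Of the 13087 genes tested, 5223 had higher values in large follicles and 623 of them had a limma unadjusted p under 0.05. Limma called 0.978% of all genes tested. Of the erythroid list 3 of 5 markers were tested and summed to between 1003 and 1675 FPKM in large follicles, and to 701 and 233 FPKM in small follicle replicates 1 and 2. The library with the highest erythroid sum, large follicle replicate 2, was the lowest for mitosis genes, and the one with the lowest sum was the highest. Between those extremes the order of the libraries did not match. The sum was nearly all HBB, at 1663 of 1675 FPKM in large follicle replicate 2 and 231 of 233 FPKM in small follicle replicate 2. Myeloid markers (11 of 11 tested) summed to between 432 and 598 FPKM in large and between 378 and 423 FPKM in small follicles. Endothelial markers (9 of 9) summed to between 353 and 441 FPKM in large and between 295 and 320 FPKM in small follicles, and lymphocyte markers (5 of 10) to between 13.7 and 27.2 FPKM and between 11.0 and 13.7 FPKM. The erythroid marker SLC4A1 was listed at 0 in 3 libraries.

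Oocyte markers were found at low levels, 7 of 11 tested, and summed to between 47.6 and 66.5 FPKM in large and between 28.4 and 40.7 FPKM in small follicles. GDF9, an oocyte growth factor, had 14.6, 20.8 and 17.2 FPKM in large and 14.7 and 13.9 FPKM in small follicles, and DAZL was at or below 0.049 FPKM in each library. The part of any of these cell types in the values of the mitosis genes was not tested.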

How the data were processed

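The deposited files hold 1 FPKM value per gene and library, per the file headers; how the authors computed it is not stated there. In the submitters' processing notes stand the build Sscrofa11.1 and, without role or order, featureCounts 1.5.0-p3, HISAT2 2.0.5, FastQC 0.11.4, StringTie 1.3.3 and Trimmomatic 0.38. Per the labels' protocols, RNA was isolated with TRIzol and a stranded mRNA kit was used; nothing says whether counting used the strand, so overlapping and antisense genes may share fragments. Chromosome numbers came from RefSeq genes of that assembly, which matched 30335 gene identifiers and all 49 mitosis genes.

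Genes with at least 1 FPKM in at least 2 libraries were tested (13087) on log2(FPKM + 1) by limma (version 3.58.1, R 4.3.3, two-sided, trend in the variance). Group was the only term, and genes were called under a Benjamini-Hochberg adjusted p of 0.05 over all those tested. That scale understates changes of low genes. Library totals and fragments were worked back from the steps of the FPKM values: 49.5% of the 23353 genes above 0 gave whole fragments (within 0.001) with the listed length, among them 14 mitosis genes, and the others did with a shorter length found by search. AURKB allowed more than 1 length, so its fragments are not given. For a 2000-base gene, 3 fragments amount to 0.130 to 0.158 FPKM, depending on the library, a floor that covers counting error only.

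The members, lists and tests were chosen with earlier results of these data known. Genes printed with all their values are the 10 members with the smallest p, 8 proliferation genes, BUB3, SMC2, SMC4 and the member farthest against the rest. Other members are given by role. Promoter sequences were not used here. The fit was tested on simulated libraries. Alternatives covered pseudocounts, filters, scalings, a replicate block, variance models, protein-coding genes, voom on the recovered fragments and each library left out.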

Additional observations from a re-analysis of the deposited data

How the results depend on the processing

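No mitosis gene tested was called by limma in any of the 18 alternatives; the filter at a mean of 5 FPKM tested 23 of the 49. Their median log2 fold change of -0.53 moved by less than 1 SD of the library means (0.385) in all but 2: it was -0.086 without small follicle replicate 2 and 0.082 without both that library and large follicle replicate 2, an alternative added after the values were seen, in which the difference had to shrink because the libraries left out were the extremes. With a pseudocount of 5 it was -0.27. Leaving out each library in turn gave medians from -0.88 to -0.086. Directions turned for 13 of the 49 genes without small follicle replicate 2 and for 31 without both libraries. Among the 19 genes printed in full, they turned without small follicle replicate 2 for CDK1 (0.17), BUB3 (0.073) and SMC4 (0.039), and without both libraries for CCNB1 (0.026), CDK1 (0.36), BIRC5 (0.22), BUB3 (0.21), SMC2 (0.25) and SMC4 (0.35). The lowest values of these 6 genes over the left-out libraries were -1.11 for CCNB1, -0.67 for CDK1, -0.56 for BIRC5, -0.52 for BUB3, -1.25 for SMC2 and -1.27 for SMC4. Over all genes, 128 were called. That number was 32 without a filter, 41 at a mean of at least 5 FPKM, 202 by median-of-ratios scaling, 201 after quantile normalization, 82 among protein-coding genes, 70 by voom and 509 without both extreme libraries. It ran from 29 to 268 with each library left out: 29, 268 and 222 without the large follicle replicates in order, and 78 and 60 without the small ones. The cause was not tested. Scaling to a common sum moved the median of all genes from -0.084 to -0.19; relative to it the mitosis genes were at -0.46, against -0.45 as deposited. A replicate block gave 157 calls, 0 mitosis genes called, 1 at an unadjusted p under 0.05 (794 over all genes tested) and a median of -0.59. The labels do not say whether the numbers pair the samples, so they were not taken to. Deviations from the group means correlated over genes at -0.0015 between the libraries numbered 1 and at -0.45 between those numbered 2. With 2 small libraries, their deviations mirror each other and the correlations come in pairs of opposite sign. These correlations cannot show whether the samples are paired. The mitosis genes held 9 to 1533 fragments each in a library, so counting error is largest for those at the low end, such as KIF18A.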
